A study of Mus musculus with 28 samples.

Results

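The genes described are 6 members of the Slc4 family of bicarbonate transporters that neurons and glia of the brain use, *Slc4a2*, *Slc4a3*, *Slc4a4*, *Slc4a7*, *Slc4a8* and *Slc4a10*. They were chosen by symbol and not by a measured value, and they are 6 of the 49477 genes present in the count tables of both batches. The study singled out *Slc4a7* on these same mice and set it beside human genetic association with alcohol use, so its difference after chronic drinking is not independent evidence. All 6 genes were among the 16266 genes tested, which had 10 or more counts on average.

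RNA was sequenced from amygdala micropunches, taken over the central and basolateral nuclei, of 28 adult female C57BL/6J mice (C57BL6/J in the sample labels) in 2 batches. The mice were bought at 7 weeks of age and housed singly, and the drinking period was 28 days in a choice between 2 bottles. The 10 Water mice (4 in batch 1 and 6 in batch 2) had water alone. The 9 Acute mice (4 and 5) had 20% ethanol once, on day 28, and the 9 Chronic mice (3 and 6) had 20% ethanol every other day, and tissue of all groups was taken on day 29. Each library came from 1 mouse, so spreads below are between animals of 1 sex and 1 inbred strain. The libraries held 20004380 to 22569562 counts over the genes of their own table.

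Bicarbonate is the main mobile buffer of brain fluid, and the Slc4 proteins carry it across cell membranes. The anion exchangers trade it for chloride and so load cells with acid and chloride, whereas the sodium-coupled transporters bring it in with sodium and so remove acid. Extracellular acid inhibits NMDA receptors and opens acid-sensing channels, and the chloride gradient sets the effect of GABA, so these genes bear on neuronal excitability. Among the sodium-coupled members, *Slc4a4* encodes the electrogenic transporter of astrocytes, *Slc4a7* an electroneutral transporter found at synapses, *Slc4a8* the sodium-driven chloride-bicarbonate exchanger of presynaptic terminals, and *Slc4a10* a related transporter of neurons that also lies in the basolateral membrane of the choroid plexus. *Slc4a3* encodes an anion exchanger enriched in neurons and heart, and *Slc4a2* a widely expressed anion exchanger that is abundant in the choroid plexus epithelium.

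All 6 genes lie on the plus strand of GRCm38 and code for protein in GENCODE M21. *Slc4a7* (ENSMUSG00000021733) spans chr14:14702279-14799940, *Slc4a4* (ENSMUSG00000060961) chr5:88886818-89239653, *Slc4a8* (ENSMUSG00000023032) chr15:100761747-100823968 and *Slc4a10* (ENSMUSG00000026904) chr2:62046462-62326730. *Slc4a2* (ENSMUSG00000028962) spans chr5:24423837-24440950 and *Slc4a3* (ENSMUSG00000006576) chr1:75546266-75562172. *Slc4a2* overlaps *Fastk* and *Gm22333* on the minus strand, and because the sources do not say that strand was used in counting, reads of the overlapping parts cannot be told apart. The other 5 genes overlap no annotated gene.

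The promoter windows of 3 members are shown because the results turn on them, *Slc4a7* for the largest difference from Water, *Slc4a8* for its variation with *Slc4a7* over mice, and *Slc4a2* for its variation with choroid plexus markers. Each window runs from 250 bases before to 50 bases after a RefSeq start on GRCm38.p6, on the plus strand, 5′ to 3′. Capitals mark the pentamer CCAAT, read on either strand, which many promoters carry. The windows are chr14:14718534-14718833 for *Slc4a7*, chr15:100761497-100761796 for *Slc4a8* and chr5:24424982-24425281 for the first of 2 *Slc4a2* starts.
Slc4a7: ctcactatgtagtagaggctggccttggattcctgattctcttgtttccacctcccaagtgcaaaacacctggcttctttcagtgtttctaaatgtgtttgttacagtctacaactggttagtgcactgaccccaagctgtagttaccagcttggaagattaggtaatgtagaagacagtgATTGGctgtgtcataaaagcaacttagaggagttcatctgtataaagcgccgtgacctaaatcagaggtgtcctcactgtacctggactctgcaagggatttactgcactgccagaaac
Slc4a8: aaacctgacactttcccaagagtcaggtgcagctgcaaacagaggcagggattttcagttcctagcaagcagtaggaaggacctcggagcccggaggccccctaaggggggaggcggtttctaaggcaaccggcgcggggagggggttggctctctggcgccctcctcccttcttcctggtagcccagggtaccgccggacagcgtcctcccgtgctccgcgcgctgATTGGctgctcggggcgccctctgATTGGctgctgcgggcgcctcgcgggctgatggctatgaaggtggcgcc
Slc4a2: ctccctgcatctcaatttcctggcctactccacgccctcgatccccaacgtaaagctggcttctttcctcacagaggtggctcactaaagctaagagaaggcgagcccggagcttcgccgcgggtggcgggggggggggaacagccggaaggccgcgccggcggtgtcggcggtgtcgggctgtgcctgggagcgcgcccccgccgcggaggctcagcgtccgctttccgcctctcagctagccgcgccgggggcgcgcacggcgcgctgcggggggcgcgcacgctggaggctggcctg
The *Slc4a7* window was poor in CpG, with 2 CG pairs and 45% G and C, against a median of 7 pairs over 32851 promoter windows. It held 1 CCAAT, on the minus strand. The start it belongs to lies inside the gene as GENCODE draws it, downstream of the annotated 5′ end. The *Slc4a8* window held 21 CG pairs and 2 CCAAT on the minus strand, and the *Slc4a2* window held 37 CG pairs and no CCAAT. Of all windows, 37.4% held CCAAT. The hexamer TAATCC, bound by the choroid plexus factor *Otx2*, was in 7.06% of all windows on either strand and in none of the windows of the 6 genes. A match is a description of these letters and not a site shown to be used.

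Levels of different genes are compared as CPM (counts scaled to a common library size) per kilobase of exon, after TMM scaling of the libraries. *Slc4a10* was the highest of the 6, at 40.2 ± 3.02 (SD, n = 28 mice). *Slc4a3* followed at 19.0 ± 2.04, *Slc4a4* at 11.1 ± 1.43, *Slc4a8* at 7.75 ± 0.796, *Slc4a2* at 5.50 ± 2.39 and *Slc4a7* last at 1.65 ± 0.195. The neuronal transporter *Slc4a10* therefore stood 2.11 times above the next gene, and *Slc4a7* 3.33 times below *Slc4a2*. In every mouse *Slc4a10* exceeded *Slc4a3*, *Slc4a3* exceeded *Slc4a4*, *Slc4a4* exceeded *Slc4a8*, and *Slc4a2* exceeded *Slc4a7*. *Slc4a8* exceeded *Slc4a2* in 23 of 28 mice, and the ranges of these neighbours overlapped in both batches. The ranges of *Slc4a4* and *Slc4a8* overlapped in the second batch only. This order depends on the length assigned to a gene, since with the length of the longest transcript *Slc4a2* (10.7) ranked above *Slc4a8* (8.56), and with the mean length of coding transcripts *Slc4a3* (72.1) ranked above *Slc4a10* (47.8).

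**Figure D1:**
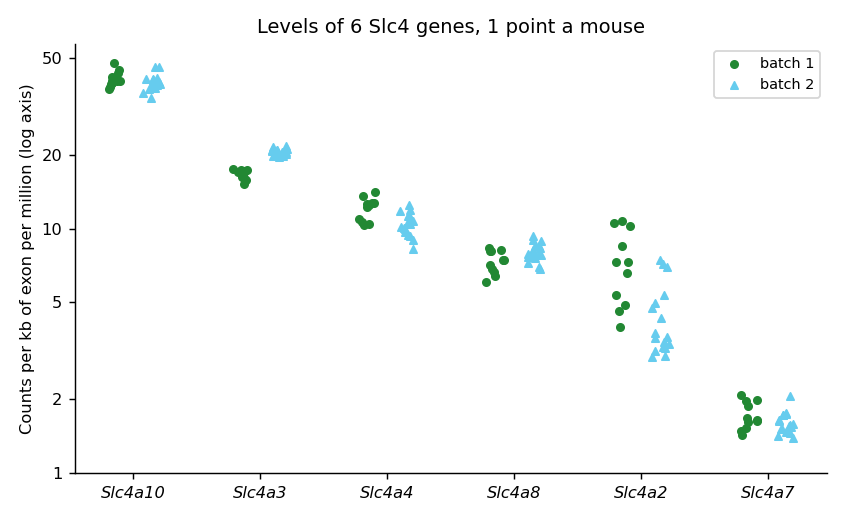
Level of each of the 6 Slc4 genes in each of 28 mice, in CPM per kilobase of exon on a log axis, by batch (circles first, triangles second). *Slc4a10* lies highest (mean 40.2) and *Slc4a7* lowest (mean 1.65), and *Slc4a2* is the most spread out, overlapping *Slc4a8* in both batches.

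The members differed widely in how much they varied from mouse to mouse. Within batches, the SD of log2 CPM (prior count 2) was 0.47 for *Slc4a2*, larger than that of 93.5% of genes. It was 0.054 for *Slc4a3*, with 1.96% of genes below it, so this gene was among the steadiest of the transcriptome. *Slc4a4* (0.16), *Slc4a7* (0.16), *Slc4a8* (0.14) and *Slc4a10* (0.11) lay nearer the median of all genes, 0.14. The second batch differed from the first by -0.72 for *Slc4a2* and by 0.30 for *Slc4a3* on the log2 scale. For *Slc4a4* this difference was -0.22, for *Slc4a8* 0.13, for *Slc4a7* -0.094 and for *Slc4a10* -0.048. The identifiers of *Slc4a4* and *Slc4a7* carry another version in the second table than in the first and in GENCODE M21, so for these genes batch and gene model cannot be told apart. The group tests adjusted for batch, were made within batches, or used batch-adjusted counts.

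**Figure D2:**
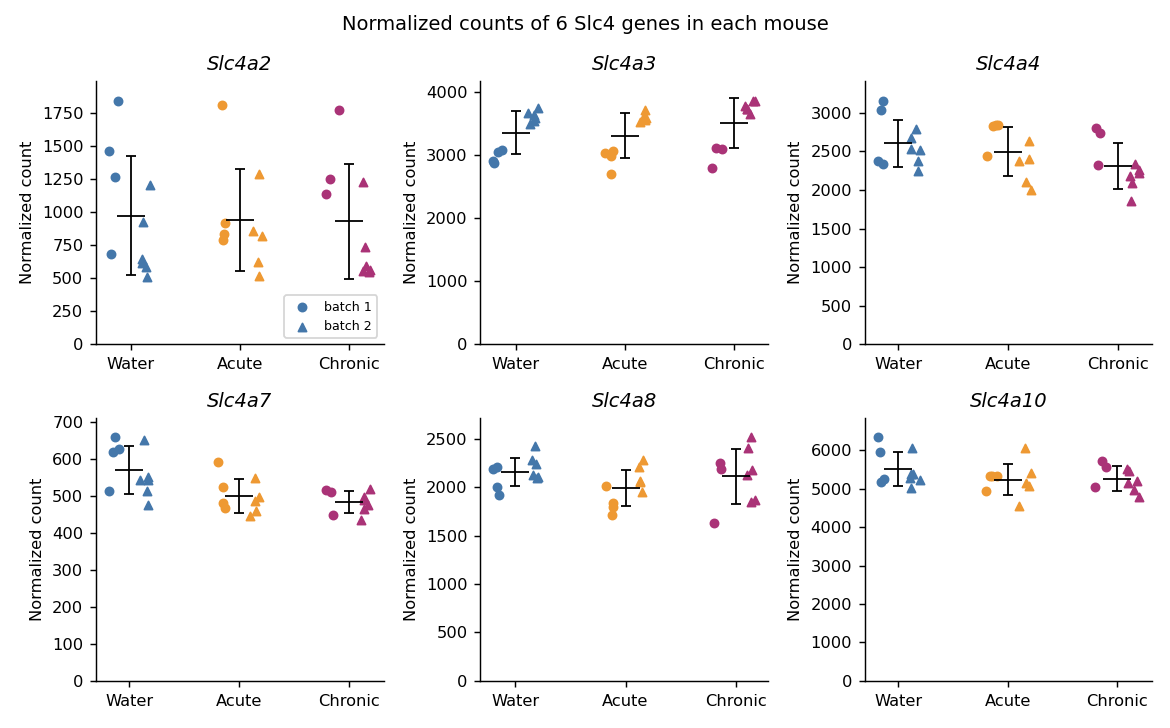
Normalized counts of each gene (counts scaled to the mean TMM library size, axis from 0) in each mouse of the Water, Acute and Chronic groups, with circles for the first batch and triangles for the second. Black marks give the mean and SD of each group. Groups overlap for all 6 genes, the *Slc4a7* means run from 570 in Water to 484 in Chronic, and *Slc4a3* falls into separate ranges by batch.

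Acute and chronic drinking were each compared with Water with edgeR's quasi-likelihood test, and a gene was called at an adjusted p under 0.05 after Benjamini-Hochberg adjustment over all 16266 genes. These comparisons share the Water mice. With batch means removed, the groups overlapped for each of the 6 genes, and they did not overlap for 0.0184% of all genes in Acute and 0.00615% in Chronic against Water. No member was called in Acute against Water, where 0% of all genes were called, nor in Chronic against Water, where 0.0184% were called. At an unadjusted p under 0.05, 1 of 6 members was lower in Acute mice, where 4.45% of all genes were, and 2 of 6 were lower in Chronic mice, where 5.65% of all genes were. The median log2 fold change of the members was -0.075 in Acute and -0.051 in Chronic mice, beside 0.0012 and 0.0022 over all genes. All 6 members had a negative value in Acute mice and 5 of 6 in Chronic mice, and over the alternatives run 4 to 6 did in Acute and 4 or 5 in Chronic mice. With GC and length offsets 5 did in Acute mice, *Slc4a3* being at 0.018. With batch as the only covariate, some negative values were smaller than their standard errors. These were *Slc4a2* and *Slc4a3* in Acute mice and *Slc4a2* and *Slc4a8* in Chronic mice. The signs are not independent, since the members come from the same mice and some vary together. DESeq2 on the same counts called 1 of the 6, *Slc4a7*, in Chronic mice and none in Acute mice, where it called 0.234% and 0.0553% of all genes. After ComBat-seq DESeq2 again called only *Slc4a7* of the 6, in Chronic mice, with 0.54% of all genes called there and 0.184% in Acute mice.

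**Figure D3:**
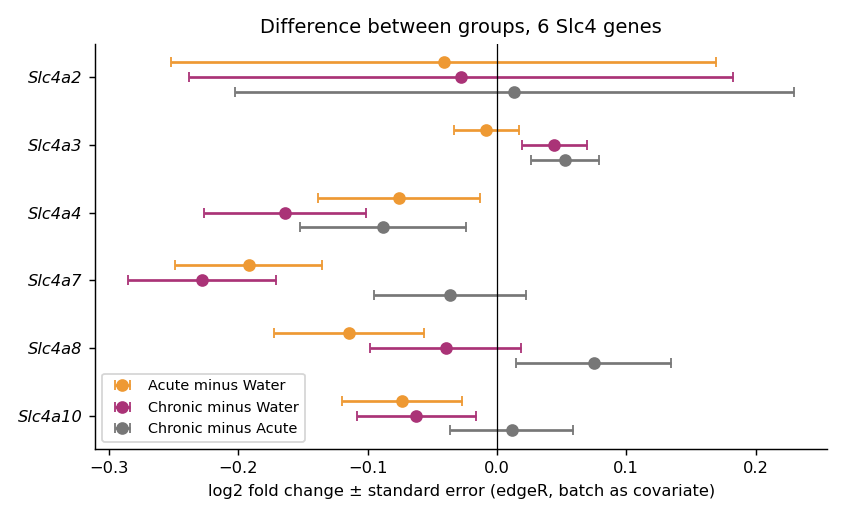
log2 fold changes with standard errors of the 6 genes from edgeR with batch as a covariate, for Acute minus Water, Chronic minus Water and Chronic minus Acute. *Slc4a7* lies farthest below 0 against Water (-0.19 and -0.23), *Slc4a2* has the widest errors (0.21) and *Slc4a3* the narrowest (0.025).

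*Slc4a7*, the electroneutral sodium-bicarbonate cotransporter, showed the largest difference from Water of the 6 in both comparisons over all mice with batch as the only covariate. With the library total as a further covariate, and likewise with GC and length offsets added to it, *Slc4a2* was farther from Water in Acute mice (-0.19 ± 0.22, against -0.12 for *Slc4a7*, with the total alone), and *Slc4a2* (-0.32 ± 0.26) and *Slc4a10* (-0.098 ± 0.058) were so in Chronic mice (-0.091 for *Slc4a7*). In batch 1 alone *Slc4a2* was farther in Acute mice (-0.27 ± 0.31, against -0.23), and in batch 2 alone *Slc4a4* was farther in Chronic mice (-0.23 ± 0.067, against -0.19 ± 0.067). The normalized count of the 10 Water mice lay between 475 and 659 with a median of 548. That of the 9 Acute mice lay between 446 and 591 (median 486), and that of the 9 Chronic mice between 436 and 518.5 (median 489). The highest Water mice lay above every drinking mouse, while the lowest Water mice lay within the range of both drinking groups. The mean of the Water mice was 570 ± 64.6 (SD, n = 10), that of the Acute mice 500 ± 46.8 (n = 9) and that of the Chronic mice 484 ± 29.8 (n = 9).

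With batch as a covariate, the log2 fold change of *Slc4a7* was -0.19 ± 0.057 (SE) in Acute mice (unadjusted p = 0.00212, edgeR adjusted p = 0.384) and -0.23 ± 0.057 in Chronic mice (unadjusted p = 0.000404, edgeR adjusted p = 0.181). Neither passed the adjusted threshold. With batch means removed, 8 of 9 Acute mice and 9 of 9 Chronic mice lay below the Water mean, and the exact permutation test over every regrouping of mice within batches gave p = 0.0115 and p = 0.00189, 2-sided and without adjustment. DESeq2 with batch as a covariate gave nearly the same Chronic value, -0.23 ± 0.060, and an adjusted p of 0.0423. After ComBat-seq batch adjustment, a route near to that of the study, the adjusted p of DESeq2 was 0.0331. Here ComBat-seq was given the group, which the paper does not state for its own run. That test has no batch term, so the degrees of freedom spent on batch are not counted in its p. Over all alternatives the adjusted p ran from 0.0331 to 1, and edgeR gave 0.0799 to 0.378 when 1 mouse was left out. The Acute adjusted p was 0.179 in DESeq2, and it ran from 0.169 to 0.915 over all alternatives.

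The *Slc4a7* difference had the same sign in both batches. In batch 1 it was -0.23 ± 0.096 for Acute and -0.30 ± 0.10 for Chronic mice, and in batch 2 -0.17 ± 0.071 and -0.19 ± 0.067. The test of the difference between batches gave unadjusted p = 0.603 for Acute and 0.374 for Chronic mice in edgeR.

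Library totals moved with *Slc4a7* and with group. In batch 1 the totals were 20393352 to 22474159 counts in Water, 21355488 to 22548961 in Acute and 22164404 to 22569562 in Chronic mice. In batch 2 they were 20004380 to 20208978 counts, 20117248 to 20361343 counts and 20135215 to 20890964 counts, so that the Water mice lay lowest and the Chronic mice highest, with overlap. Over the 28 mice, with batch means removed, *Slc4a7* log2 CPM fell with the log2 total over the genes of both tables at r = -0.75 (rho = -0.77, permutation p = 1e-05, the smallest that the resamples can give, adjusted p = 3e-05 over 9 relations). The r was -0.91 in batch 1, -0.53 in batch 2, -0.66 without the 2 mice farthest from the median total and -0.63 with group means removed as well. Among the other members *Slc4a4* was related to the total in the same way (r = -0.60, rho = -0.65, permutation p = 0.00049, adjusted p = 0.0011, -0.52 without the 2 farthest mice), with -0.61 and -0.68 in the batches. *Slc4a8* had r = -0.38 (rho = -0.48, permutation p = 0.0673, adjusted p = 0.101), and the other 3 members had adjusted p-values of at least 0.306. The share of all genes that follow the total as closely is not given here.

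With the log2 total added to the edgeR fit, a choice made after the values were seen, the *Slc4a7* difference was -0.12 ± 0.051 in Acute mice (unadjusted p = 0.0312) and -0.091 ± 0.059 in Chronic mice (unadjusted p = 0.135). *Slc4a7* is also long and low in G and C. The union of its exons has 15205 bases, and its longest transcript 8132 bases and 41.6% G and C. The longest transcript of *Slc4a8* has 11790 bases, and that of *Slc4a10* 42.1% G and C. The offsets used next take both measures from the longest transcript. With offsets that remove the trend of each library on gene GC content and length, the differences were -0.13 ± 0.045 and -0.15 ± 0.045 (unadjusted p = 0.00796 and 0.00200). With both changes the Acute difference was -0.078 ± 0.043 (unadjusted p = 0.0828) and the Chronic difference -0.063 ± 0.050 (unadjusted p = 0.225). Over the alternatives run, *Slc4a7* was below Water in both groups under each, among them the fit with the choroid plexus score as covariate (-0.23 in Chronic mice), and how drinking, library total and this gene depend on each other was not tested.

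**Figure D4:**
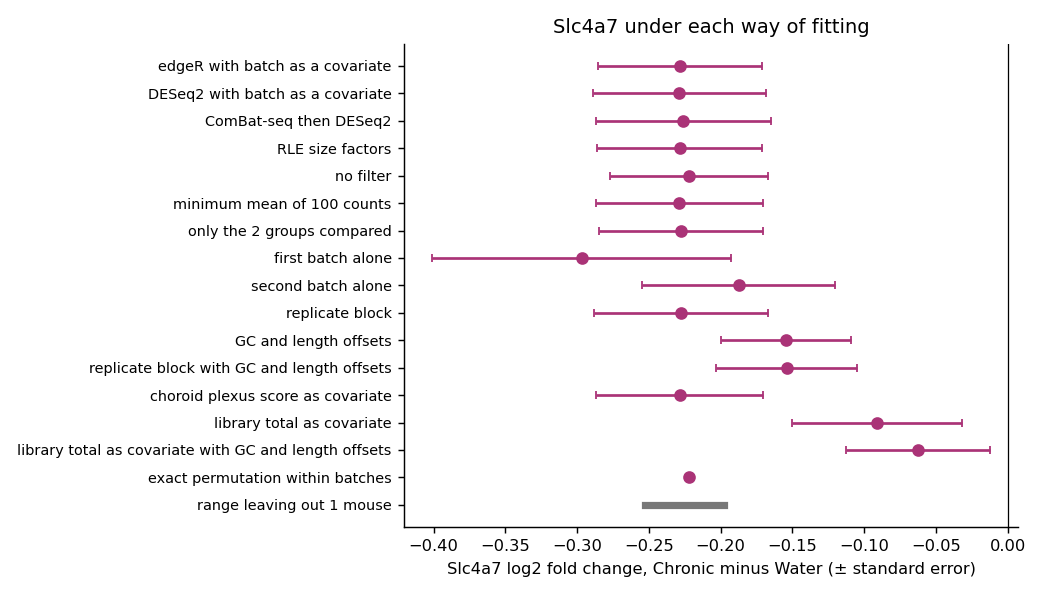
log2 fold change of *Slc4a7*, Chronic minus Water, under each way of fitting, with its standard error (none for the permutation test), and the range over 28 fits that each left out 1 mouse as a grey bar. All values lie below 0, from -0.30 in the first batch alone to -0.063 with the library total as covariate and GC and length offsets.

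*Slc4a4*, the electrogenic cotransporter of astrocytes, was the other member with an unadjusted p under 0.05 against Water in edgeR with batch as the only covariate. Water mice had 2242 to 3159 normalized counts (median 2526), Acute mice 2000 to 2844 (median 2440) and Chronic mice 1854 to 2799 (median 2264). The ranges of all groups overlapped, and the lowest mouse was a Chronic one. The log2 fold change was -0.16 ± 0.063 in Chronic mice (unadjusted p = 0.0139, edgeR adjusted p = 0.341), with 9 of 9 mice below the Water mean once batch means were removed (exact permutation p = 0.0374). Its value was -0.058 ± 0.11 in batch 1 alone and -0.23 ± 0.067 in batch 2 alone, a difference between batches that did not pass its test (unadjusted p = 0.201). With the library total as a covariate it was -0.048 ± 0.072 (unadjusted p = 0.514), with GC and length offsets -0.10 ± 0.050 (unadjusted p = 0.0463) and with both -0.019 ± 0.058 (unadjusted p = 0.751). In Acute mice the log2 fold change was -0.076 ± 0.063 (unadjusted p = 0.235, edgeR adjusted p = 0.715), and the sign differed between the batches, at 0.0023 in batch 1 and -0.13 in batch 2. The Acute value of *Slc4a4* was -0.019 with the offsets, -0.0088 with the library total and 0.030 with both.

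*Slc4a8*, the sodium-driven exchanger of nerve terminals, had a median normalized count of 2157 in Water mice (range 1917 to 2424), of 2007 in Acute mice (1716 to 2284) and of 2180.5 in Chronic mice (1632 to 2514.5). The Chronic mice held both the lowest and the highest value. The log2 fold change was -0.11 ± 0.058 in Acute mice (unadjusted p = 0.0592, edgeR adjusted p = 0.540), where 8 of 9 mice lay below the Water mean after removal of batch means (exact permutation p = 0.0174). In batch 1 alone it was -0.18 ± 0.096 (unadjusted p = 0.0857) and in batch 2 alone -0.070 ± 0.070 (unadjusted p = 0.333). The Acute value was -0.050 ± 0.037 with GC and length offsets (unadjusted p = 0.194), -0.068 ± 0.060 with the library total (unadjusted p = 0.263) and -0.034 ± 0.040 with both (unadjusted p = 0.409). In Chronic mice it was -0.040 ± 0.058 (unadjusted p = 0.502), with 5 of 9 below and a range of -0.068 to -0.0033 when 1 mouse was left out, and with the library total as covariate its sign turned, to 0.045 ± 0.069, while with the offsets it was -5.67e-05 ± 0.037.

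*Slc4a10*, the most abundant member, had a median normalized count of 5333 in Water mice (range 5020 to 6341), of 5322 in Acute mice (4555 to 6066) and of 5196 in Chronic mice (4779 to 5734.5). The group medians lay within the range of every group. Against Water the log2 fold change was -0.074 ± 0.046 in Acute mice (unadjusted p = 0.122, edgeR adjusted p = 0.626) and -0.062 ± 0.046 in Chronic mice (unadjusted p = 0.189, edgeR adjusted p = 0.670). With GC and length offsets the values were -0.039 ± 0.044 (unadjusted p = 0.379) and -0.010 ± 0.044 (unadjusted p = 0.814), and with the library total -0.093 ± 0.050 (unadjusted p = 0.0733) and -0.098 ± 0.058 (unadjusted p = 0.103). The Acute value was -0.12 ± 0.066 in batch 1 alone and -0.041 ± 0.062 in batch 2 alone, and the Chronic value -0.061 and -0.060. When 1 mouse was left out, the Acute value ran from -0.107 to -0.051, with an unadjusted edgeR p from 0.0184 to 0.271. The Chronic value then ran from -0.076 to -0.041.

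Of the anion exchangers, *Slc4a3* had a median normalized count of 3514 in Water mice (range 2874 to 3739), of 3520 in Acute mice (2699 to 3709.5) and of 3723 in Chronic mice (2801 to 3864). Most of this range separated the batches, and within each batch the groups overlapped. The log2 fold change was -0.0082 ± 0.025 in Acute mice (unadjusted p = 0.748, edgeR adjusted p = 0.948) and 0.044 ± 0.025 in Chronic mice (unadjusted p = 0.0903, edgeR adjusted p = 0.553). In this fit it was the only member with a positive value against Water, and 8 of 9 Chronic mice lay above the Water mean (exact permutation p = 0.0633). In edgeR the Chronic value was 0.011 ± 0.057 in batch 1 alone (unadjusted p = 0.844) and 0.063 ± 0.028 in batch 2 alone (unadjusted p = 0.0398).

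*Slc4a2* had a median normalized count of 800.5 in Water mice (range 511 to 1843), of 837 in Acute mice (519 to 1809) and of 738 in Chronic mice (544 to 1772). High and low mice occurred in every group. The log2 fold change was -0.041 ± 0.21 in Acute mice (unadjusted p = 0.846, edgeR adjusted p = 0.968) and -0.028 ± 0.21 in Chronic mice (unadjusted p = 0.896, edgeR adjusted p = 0.976). With the choroid plexus marker score as a covariate the standard errors were 0.11 and the values 0.00054 and 0.054, of the opposite sign and with unadjusted p = 0.996 and 0.632.

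Chronic and Acute mice were compared directly with the same test. No member was called, where 0% of all genes were, and in this edgeR fit none had an unadjusted p under 0.05, where 4.44% of all genes did. *Slc4a3* was nearest to it, with a log2 fold change of 0.053 ± 0.026 (unadjusted p = 0.0529, edgeR adjusted p = 0.998) and 8 of 9 Chronic mice above the Acute mean. Its unadjusted p was under 0.05 in some alternatives, among them DESeq2 (0.0381), ComBat-seq then DESeq2 (0.0336), RLE size factors (0.0491), a minimum mean of 100 counts (0.0430) and batch 2 alone (0.0327), and it ran from 0.00857 without Chronic mouse 37 of batch 1 to 0.100 when 1 mouse was left out, while its adjusted p was at least 0.819 in all alternatives that give one. For *Slc4a7* the difference was -0.036 ± 0.059 (unadjusted p = 0.543), with -0.053 to -0.011 when 1 mouse was left out. *Slc4a4* stood at -0.088 ± 0.064, *Slc4a8* at 0.075 ± 0.060 (0.047 to 0.11 when 1 mouse was left out), *Slc4a2* at 0.013 ± 0.22 and *Slc4a10* at 0.011 ± 0.048. No member was called for a difference between batches in the effect of drinking, with edgeR adjusted p-values of at least 0.866 over the 6 genes and both comparisons with Water, where the batches differed for 0% of all genes in Acute and 0.00615% in Chronic mice.

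Of the other Slc4 genes, *Slc4a5*, the electrogenic cotransporter of the choroid plexus apical membrane, varied from mouse to mouse more than 99.9% of genes. Its normalized count ran from 3.20 to 762 in Water mice, from 0 to 728 in Acute mice and from 0 to 724 in Chronic mice. The log2 fold change was -0.25 ± 0.66 in Acute and -0.20 ± 0.66 in Chronic mice (edgeR adjusted p = 0.939 and 0.946). *Slc4a11* ran from 70.7 to 227 normalized counts over all mice, and its log2 fold change was 0.16 ± 0.14 in Acute and -0.016 ± 0.14 in Chronic mice (edgeR adjusted p = 0.729 and 0.978). *Slc4a1*, the erythrocyte anion exchanger, had at most 3 counts in a mouse and *Slc4a9* at most 12, and both were below the filter.

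Beyond the members, 69 genes of bicarbonate, proton and chloride handling were followed, of which 53 passed the filter. They were the other Slc4 genes, carbonic anhydrases, sodium-proton exchangers, Slc26 anion exchangers, monocarboxylate transporters, cation-chloride cotransporters, regulators of bicarbonate cotransporters, and acid and bicarbonate sensors. The filter was passed by 2 of 4, 12 of 16, 8 of 9, 7 of 11, 6 of 6, 5 of 7, 8 of 8 and 5 of 8 genes of these lists. In edgeR 0 of the 53 were called in any comparison. At an unadjusted p under 0.05, 1 gene was higher and 0 lower in Acute against Water, and 1 higher and 0 lower in Chronic against Water, where 5.07% and 4.81% of all genes were higher. The median log2 fold change of the 53 was -0.030 in Acute and 0.0037 in Chronic mice. In Chronic mice the medians of single lists lay between -0.058 for the 5 cation-chloride cotransporters and 0.034 for the 5 sensors, apart from -0.11 for the 2 other Slc4 genes, and in Acute mice between -0.083 for the sensors and 0.029 for the 8 sodium-proton exchangers.

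The 1 gene in Acute mice was the Golgi sodium-proton exchanger *Slc9a8*, at 713 ± 29.4 normalized counts against 676 ± 30.1 in Water (log2 fold change 0.077 ± 0.036, unadjusted p = 0.0397, edgeR adjusted p = 0.502). The neuronal carbonic anhydrase *Car7* (0.12) was also on the higher side, and *Slc9a7* (-0.20), the lactate and pyruvate transporter *Slc16a7* (-0.091) and the kinase *Wnk1* (-0.087) on the lower side, with unadjusted p-values from 0.0727 to 0.154. The 1 gene in Chronic mice was *Asic1*, an acid-sensing cation channel of neurons, at 2317 ± 204 against 2127 ± 100.5 in Water (log2 fold change 0.12 ± 0.045, unadjusted p = 0.0154, edgeR adjusted p = 0.348). *Slc9a8* (0.060) and *Car10* (0.15) followed on the higher side, and the kinase *Wnk3* (-0.11) and *Asic4* (-0.22) were on the lower side, with unadjusted p-values from 0.0878 to 0.137. Between Chronic and Acute mice the carbonic anhydrase *Car4* was higher (0.20 ± 0.084, unadjusted p = 0.0227) and *Ahcyl1*, a regulator of *Slc4a4*, was lower (-0.089 ± 0.037, unadjusted p = 0.0247), where 1.95% of all genes were higher and 2.5% lower, both with an edgeR adjusted p of 0.998 and both chosen for naming after their values were seen.

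The punches are bulk tissue, in which fewer cells of a type and less RNA per cell cannot be told apart. The neuronal markers of the amygdala tissue were present in every mouse, with summed levels of 6445 to 7587 CPM, and astrocyte markers with 2942 to 3423 CPM. Choroid plexus, which does not belong to the amygdala, was also represented. The summed level of its 10 markers ran from 29.2 to 4194 CPM in Water, 21.4 to 3709 in Acute and 18.7 to 4441 in Chronic mice, and *Ttr*, the thyroid hormone carrier, was the most abundant. Of the defining markers, *Otx2* was at 0 in 1 mouse and *Kcnj13* in 2, all in the second batch. The mean choroid plexus score, a mean log2 CPM with batch means removed, was 0.16 ± 1.61 (SD) for Water, -0.032 ± 1.91 for Acute and -0.14 ± 1.84 for Chronic mice. The neuron score was -0.034 ± 0.040 for Water, 0.030 ± 0.056 for Acute and 0.0083 ± 0.050 for Chronic mice, beside an SD of 0.055 over all mice, and its part in the group differences was not tested. For the other 6 scores the group means lay within 1 SD of each other.

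*Slc4a2* followed these markers closely. Over the 28 mice with batch means removed, its correlation with the choroid plexus score was r = 0.85 (rho = 0.87, permutation p = 1e-05, the smallest that the resamples can give, adjusted p = 0.00024 over 48 relations of a member and a score). The r was 0.99 in batch 1, 0.90 in batch 2, 0.86 without the 2 mice farthest from the median score and 0.85 with group means removed. *Slc4a5*, which is not in the marker list, followed the score at r = 0.99 (rho = 0.99, permutation p = 1e-05, adjusted p = 3e-05 over 9 relations, 0.99 in each batch and without the 2 farthest mice). *Slc4a2* and *Slc4a5* had r = 0.79 (rho = 0.86, permutation p = 1e-05, adjusted p = 3e-05, 0.84 without the 2 farthest mice), with 0.99 and 0.86 in the batches. In the 5 mice with at most 3 counts of *Slc4a5*, all in the second batch, *Slc4a2* lay at 511 to 620 normalized counts, and in the other 12 mice of that batch it ran from 557 to 1284.

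**Figure D5:**
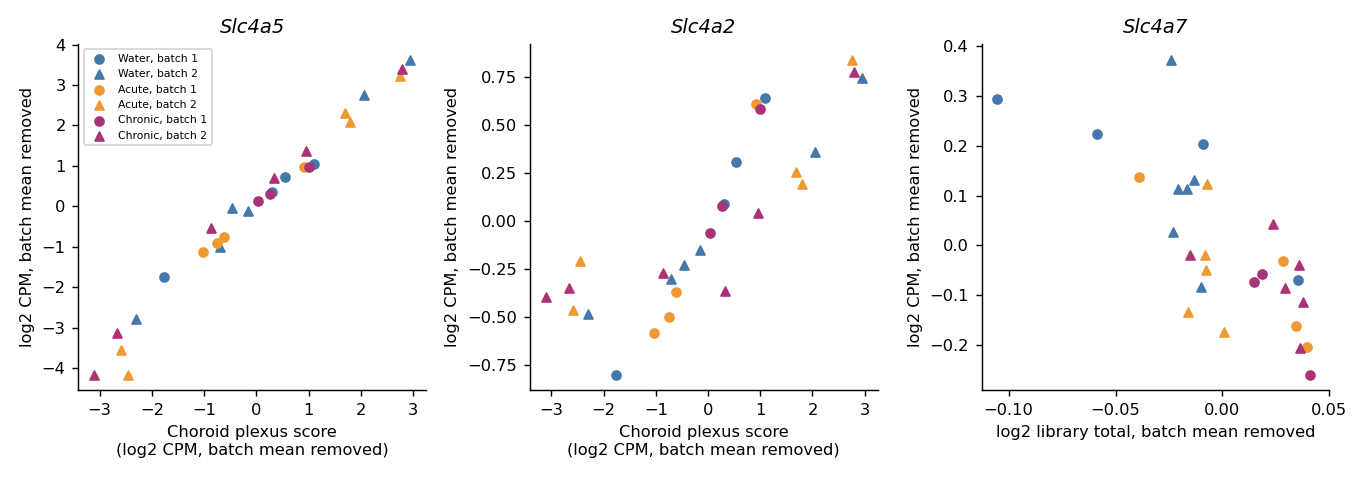
log2 CPM with batch means removed in each of 28 mice, for *Slc4a5* and *Slc4a2* against the mean log2 CPM of 10 choroid plexus markers and for *Slc4a7* against the log2 library total, with colour for group and shape for batch. *Slc4a5* and *Slc4a2* climb with the score (r = 0.99 and 0.85), and *Slc4a7* declines with the total (r = -0.75).

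Of the 48 relations of a member to one of 8 marker scores, 12 had an adjusted p under 0.05, and 4 had one when the 2 farthest mice were left out, those of *Slc4a2* to choroid plexus and astrocytes, of *Slc4a10* to choroid plexus and of *Slc4a3* to neurons. In batch 1 alone 2 of the 48 passed and in batch 2 alone 5. No share over all genes is given for such relations, so these counts describe the members alone. Besides choroid plexus, the scores were those of neurons (most abundant marker *Snap25*), astrocytes (*Slc1a2*), oligodendrocytes, their precursors (*Olig1*), microglia (*Csf1r*), endothelial cells (*Flt1*) and mural cells (*Rgs5*), and none of the markers of these lists was at 0 in any mouse. *Slc4a2* was also related to the astrocyte score (r = 0.75, rho = 0.75, permutation p = 1e-05, adjusted p = 0.00024), at 0.86 and 0.67 in the batches and 0.70 without the 2 farthest mice. The astrocyte score itself varied with the choroid plexus score (r = 0.53, rho = 0.57, permutation p = 0.00309, adjusted p = 0.00556, 0.62 without the 2 farthest mice), at 0.82 and 0.50 in the batches. *Slc4a2* was inversely related to the neuron score (r = -0.50, rho = -0.54, permutation p = 0.00813, adjusted p = 0.0434) and the microglia score (r = -0.51, rho = -0.49, permutation p = 0.00572, adjusted p = 0.0354), with -0.62 and -0.41 in the batches for neurons and -0.60 and -0.49 for microglia, and with -0.42 and -0.40 without the 2 farthest mice.

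*Slc4a10*, which the choroid plexus shares with neurons, was related to the choroid plexus score at r = 0.60 (rho = 0.65, permutation p = 0.00039, adjusted p = 0.00624), with 0.49 and 0.68 in the batches and 0.59 without the 2 farthest mice. It was inversely related to the oligodendrocyte score (r = -0.56, rho = -0.48, permutation p = 0.00236, adjusted p = 0.0189), with -0.67 and -0.47 in the batches and -0.52 without the 2 farthest mice. The relation to the microglia score was of like size (r = -0.47, rho = -0.43, permutation p = 0.0115, adjusted p = 0.0480), with -0.45 and -0.50 in the batches and -0.46 without the 2 farthest mice. That to the mural cell score (r = -0.48, rho = -0.42, permutation p = 0.0105, adjusted p = 0.0480) was -0.71 in batch 1 and -0.25 in batch 2, where its unadjusted permutation p was 0.341, and -0.43 without the 2 farthest mice.

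*Slc4a3* was related to the neuron score at r = 0.58 (rho = 0.64, permutation p = 0.00172, adjusted p = 0.0165), with 0.71 and 0.46 in the batches and 0.68 without the 2 farthest mice, and inversely to the choroid plexus score (r = -0.41, rho = -0.40, permutation p = 0.0120, adjusted p = 0.0480), with -0.39 and -0.52 in the batches and -0.34 without the 2 farthest mice. *Slc4a4* was related to the score of oligodendrocyte precursors (r = 0.61, rho = 0.57, permutation p = 0.00054, adjusted p = 0.00648), with 0.52 and 0.69 in the batches and 0.49 without the 2 farthest mice, and to that of oligodendrocytes (r = 0.51, rho = 0.50, permutation p = 0.00590, adjusted p = 0.0354), with 0.55 and 0.50 in the batches and 0.50 without the 2 farthest mice. *Slc4a4* was not related at this threshold to the astrocyte score, although astrocytes are known to express it. *Slc4a7* and *Slc4a8* had no relation with an adjusted p under 0.05 over all mice. For *Slc4a8* and the score of oligodendrocyte precursors r was 0.29 over all mice (rho = 0.43, permutation p = 0.159, adjusted p = 0.347, 0.40 without the 2 farthest mice), and it was -0.18 in batch 1 and 0.77 in batch 2 (unadjusted permutation p = 0.615 and 0.00028).

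Among the 15 pairs of members, 4 varied together with an adjusted p under 0.05 over all mice and 0 in batch 1 alone. No share over all pairs of genes is given beside this count, which describes the members alone. *Slc4a7* and *Slc4a8* had r = 0.59 (rho = 0.56, permutation p = 0.00183, adjusted p = 0.0105), with 0.66 and 0.53 in the batches and 0.59 without the 2 farthest mice. *Slc4a4* and *Slc4a7* had r = 0.58 (rho = 0.51, permutation p = 0.00163, adjusted p = 0.0105), with 0.40 and 0.74 in the batches and 0.49 without the 2 farthest mice. *Slc4a2* and *Slc4a10* had r = 0.57 (rho = 0.55, permutation p = 0.00209, adjusted p = 0.0105), with 0.48 and 0.63 and 0.48 without the 2. *Slc4a4* and *Slc4a8* had r = 0.51 (rho = 0.49, permutation p = 0.00689, adjusted p = 0.0258), with 0.35 and 0.64. For a pair, the 2 farthest mice are those farthest from the median of the gene named first. Without them none of the 15 pairs had an adjusted p under 0.05. The r of *Slc4a4* and *Slc4a8* was then 0.35 (unadjusted permutation p = 0.0873).

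These relations shifted when a shared measure was removed, a choice made after the values were seen. With the log2 library total regressed out of both genes, *Slc4a7* and *Slc4a8* had r = 0.50 (permutation p = 0.00620, adjusted p = 0.0310), and the pairs of *Slc4a4* with *Slc4a7* and with *Slc4a8* no longer had an adjusted p under 0.05. *Slc4a2* then varied inversely with *Slc4a3* (r = -0.52, permutation p = 0.00486, adjusted p = 0.0310) and *Slc4a7* with *Slc4a10* (r = 0.47, permutation p = 0.0123, adjusted p = 0.0461). With the choroid plexus score regressed out, the pair of *Slc4a2* and *Slc4a10* no longer had one, and the other 3 pairs kept theirs. Of the 48 relations to a score, 14 had an adjusted p under 0.05 with the library total regressed out. *Slc4a4* was then related to the precursor score at r = 0.75 (adjusted p = 0.00032) and the oligodendrocyte score at r = 0.67 (adjusted p = 0.00096), and also to the endothelial (r = 0.55, adjusted p = 0.0125) and mural cell scores (r = 0.55, adjusted p = 0.0125), all by permutation.

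The genes whose pattern over the 28 mice was most like each member were taken from the 11723 genes averaging 100 counts or more, by r of log2 CPM with batch means removed, as a description. For *Slc4a2* they were *Mdfic* (0.98), *Col9a3* (0.97) and the insulin-like growth factor *Igf2* (0.97). For *Slc4a10* they were the neuronal adhesion molecule *Cntn1* (0.92), *Megf9* (0.90) and *Chl1* (0.87), and for *Slc4a8* *Srrm2* (0.91) and *Smg1* (0.89). *Slc4a4* was most like *Gprin3* (0.88), *Akap9* (0.87) and the calcium release channel *Ryr3* (0.87), and *Slc4a7* most like *Zfc3h1* (0.87), *Etnk1* (0.84) and *Zfp445* (0.83). *Slc4a3* had the loosest matches, the NMDA receptor subunit *Grin1* (0.72), *R3hdm2* (0.70) and *Nol6* (0.69). The points share library, depth and punch.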

How the data were processed

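The authors checked reads with FastQC 0.11.8, quantified them with Salmon 0.14.1 on GRCm38 with GENCODE M21, summed the estimated counts by gene with tximport and deposited them as whole numbers for each batch, not normalized and before batch adjustment. The strand setting is not given in the sources used here. Libraries came from RNA with mRNA enrichment and rRNA removal. Tables were joined on the identifier without its version, which differs between tables for *Slc4a4* and *Slc4a7*, so the annotation release of the second table may differ from the stated one. Genes averaging 10 counts or more were tested with edgeR 4.0.16 in R 4.3.3 (quasi-likelihood, TMM, batch as covariate, all 28 mice). The fit was also run on these counts with mice regrouped within batches and known changes planted in some genes. The planted changes were larger than the differences of the members in the main fit, so that check does not bear on differences of their size. Alternatives used DESeq2 1.42.0 and ComBat-seq (sva 3.50.0). DESeq2 adjusts only genes that pass its own filter. Relations used 100000 resamples of mice within batches, and the exact test used 32340 regroupings for comparisons with Water and 16170 between drinking groups. Levels divide by the union of exons in GENCODE M21. Scores are means of log2 CPM (prior count 2), and *Opalin*, *Acta2* and *Notch3*, listed in the second batch only, were left out of them. Libraries held 20004380 to 22569562 counts over all genes of their own table. Counting error and the spread between mice were not separated.

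The members and lists were chosen with earlier results of these data known. Named genes are the 6 members, the other Slc4 genes, the acid-base genes with the 3 lowest p-values on either side in each comparison with Water, the 3 genes most like each member, and markers at 0 or most abundant. *Car4* and *Ahcyl1* lie outside this rule. Some genes that this rule names are not reported here. Promoters are RefSeq GRCm38.p6, matched by symbol for all 6 members. Behavior and ethanol intake were not analysed here. The libraries of a group were compared in pairs, and none appeared to be a duplicate.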

Additional observations from a re-analysis of the deposited data

Results flagged for a closer look

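Each of 18 sets of values, 6 genes in 3 groups, was searched for a mouse that stood apart, which chance gives in about 1 in 20 sets, or 0.9 of 18. It was found for 1 set, *Slc4a3* in the Chronic group, where mouse 37 of batch 1 was the lowest of the 9 Chronic mice, at 2801 normalized counts and -0.084 log2 CPM with batch means removed, and its gap to the next mouse was 0.515 of the range of the group, above the critical value of 0.493. The spread of this gene is very small (SD 0.054), so the gap is small as well. Without this mouse the log2 fold change of *Slc4a3* in Chronic against Water was 0.061 (unadjusted p = 0.0168, edgeR adjusted p = 0.279).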

How the results depend on the processing

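The count of 0 called members held in Acute against Water and Chronic against Acute under every alternative, and in Chronic against Water under all but DESeq2 with batch as a covariate and ComBat-seq then DESeq2, which each called 1 (*Slc4a7*). Leaving out 1 of the 28 mice in turn gave 0 called members in every comparison, and no acid-base gene was called under any alternative. The 12 relations to a cell type score were 6 by Spearman's rho, 2 in the first batch alone, 5 in the second, 4 without the 2 farthest mice, and 5 to 11 when 1 mouse was left out, with 6 or fewer without Acute mice 34, 35 (first batch) and 4 (second), Water mouse 43 and Chronic mouse 4 (second), and 7 without Chronic mouse 3 or Water mouse 5 (second). The 4 pairs were 0 in the first batch alone, 0 without the 2 farthest mice, and 3 to 5 when 1 mouse was left out. Levels with the longest transcript and with the mean length of coding transcripts were 10.7 and 19.4 for *Slc4a2*, 22.8 and 72.1 for *Slc4a3*, 15.1 and 38.6 for *Slc4a4*, 3.09 and 3.09 for *Slc4a7*, 8.56 and 19.2 for *Slc4a8*, and 47.1 and 47.8 for *Slc4a10*, since both lengths are shorter than the union of exons. Causes of the other shifts were not tested.

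Signs turned for small differences. In Acute against Water, *Slc4a2* was 0.13 in the second batch alone and 0.00054 with the choroid plexus score, *Slc4a3* was 0.018 with GC and length offsets, 0.017 with the replicate block and these offsets and 0.012 with the library total and offsets, and *Slc4a4* was 0.0023 in the first batch alone and 0.030 with the library total and offsets. In Chronic against Water, *Slc4a2* was 0.077 in the first batch alone and 0.054 with the choroid plexus score, and *Slc4a8* was 0.045 with the library total and 0.030 with offsets as well. In Chronic against Acute, *Slc4a2* was -0.0068 after ComBat-seq, -0.22 in the second batch alone, -0.013 with offsets, -0.13 with the library total and -0.15 with both, *Slc4a7* was 0.024 with the library total and 0.015 with both, and *Slc4a10* was -0.019 in the second batch alone and -0.0050 with the library total. Over the fits without 1 mouse, *Slc4a2* ran from -0.18 to 0.053 in Acute, from -0.15 to 0.072 in Chronic and from -0.10 to 0.15 between them, *Slc4a3* from -0.016 to 0.0047 in Acute, and *Slc4a10* from -0.012 to 0.046 in Chronic against Acute.

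The replicate numbers did not pair mice across groups. In the second batch, 16 pairs with the same number had correlations of -0.35 to 0.34 (median -0.0080), and 1 of 17 mice correlated best with its own number. With the replicate block, 0 members were called and *Slc4a7* was -0.23 in Chronic (edgeR adjusted p = 0.221) and -0.19 in Acute mice.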
